A study of Mus musculus with 5 samples.

Results

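Dermal fibroblasts of mutant mouse skin were divided by their own reporter transcripts, and the cells that carried the reporter were compared with those that did not. The members were chosen by measured values, namely the reporter, gate and depth counts given here. The 1437 cells came from 2 single-cell libraries of unsorted back skin of female mice at postnatal day 46, labelled Lepr-Cre;mTmG;Smo+/-, out of 23379 barcodes in those libraries and 45654 in the series. A cell entered when it held 500 to 8000 genes, at most 10% mitochondrial UMIs (unique molecular identifiers, which count single mRNA molecules) and 5000 to 30000 UMIs in all. It also needed at least 100 UMIs of Col1a1, Col3a1 and Dcn and fewer than 20 of Krt14 and Krt5 per 10000, and at most 1 UMI of Rgs5 and Pecam1 together. Reporter-positive cells held at least 4 UMIs of eGFP and YFP together (158 cells in mutant library 1 and 159 in mutant library 2), and reporter-negative cells held 0 (514 and 606 cells). Cells with 1 to 3 reporter UMIs (442 and 430) were in neither arm.

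The same gate was applied to 2 control libraries of the same sex and age, labelled Lepr-Cre;mTmG in their titles, with Smo added after the reporter in the protocol. Mice of both groups carried Lepr-Cre, which drives Cre recombinase from the leptin receptor locus, and mTmG, a reporter at the Rosa26 locus that changes from membrane tomato to membrane GFP where Cre has acted. The labels do not say which Smo allele the mutant carries, and no YFP allele is named in them although YFP is listed among the features. Cre marks a cell for its whole lineage, so the reporter records past as well as present use of the Lepr locus. Per the protocols both libraries of a genotype are technical replicates. The n of 2 therefore counts preparations, and no p-value covers the spread between animals. The reporter comparison sets the arms against each other within each library. Its p-values thus rest on how far that difference varied between the 2 preparations, and on spread that edgeR shares across genes.

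Hedgehog signalling starts when a secreted ligand binds the receptor Ptch1 and so frees Smo, a membrane protein that Ptch1 otherwise holds inactive. Smo then lets Gli transcription factors switch on target genes, and these include Gli1 itself, the receptor Ptch1 and the decoy receptor Hhip, so the pathway writes its own read-out and its own brake. In skin, ligand from the follicle epithelium reaches the surrounding mesenchyme, where the pathway is known for its part in hair follicle growth.

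The arms differed in the reporter by construction, and these values are a description. Median reporter UMIs per positive cell were 21.5 and 25 in mutant libraries 1 and 2. In the summed positive cells eGFP stood at 1455 and 1736 CPM (counts per 1000000 UMIs of the sum), and YFP at 60.7 and 76.9 CPM. YFP was seen in 81 and 86 positive cells, of which 2 and 4 held YFP without eGFP, and it had 0 UMIs in every gated control cell. As eGFP and YFP are near-identical in sequence, how reads were assigned or dropped between them is uncertain and was not tested. The gate gene Col1a1 varied over the positive cells. It stood at 8001 and 6288 CPM in cells with at least 20 reporter UMIs, at 15058 and 9512 CPM in those with 5 to 9, and at 9609 and 14113 CPM in those with 4, against 13408 and 14371 CPM in cells with 0.

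The cells just outside and just inside the threshold were as follows. At 3 reporter UMIs (61 and 56 cells) Lepr stood at 198 and 158 CPM and Ptch1 at 107 and 127 CPM. At 4 reporter UMIs (24 and 18 cells) Lepr stood at 226 and 147 CPM and Ptch1 at 154 and 223 CPM. Tomato, the reporter before recombination, was at 821 and 637 CPM at 4 reporter UMIs and at 828 and 653 CPM at 5 to 9. It was at only 111 and 55.4 CPM at 10 to 19 and at 127 and 78.2 CPM at 20 or more reporter UMIs. At the other edge, cells with 1 reporter UMI had Lepr at 114 and 98.6 CPM against 96.7 and 76.2 CPM in cells with 0. The positive arm thus held cells with high and with low tomato, and 73.4% and 63.5% of its cells had at least 1 tomato UMI against 97.3% and 97.2% of negative cells.

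**Figure D1:**
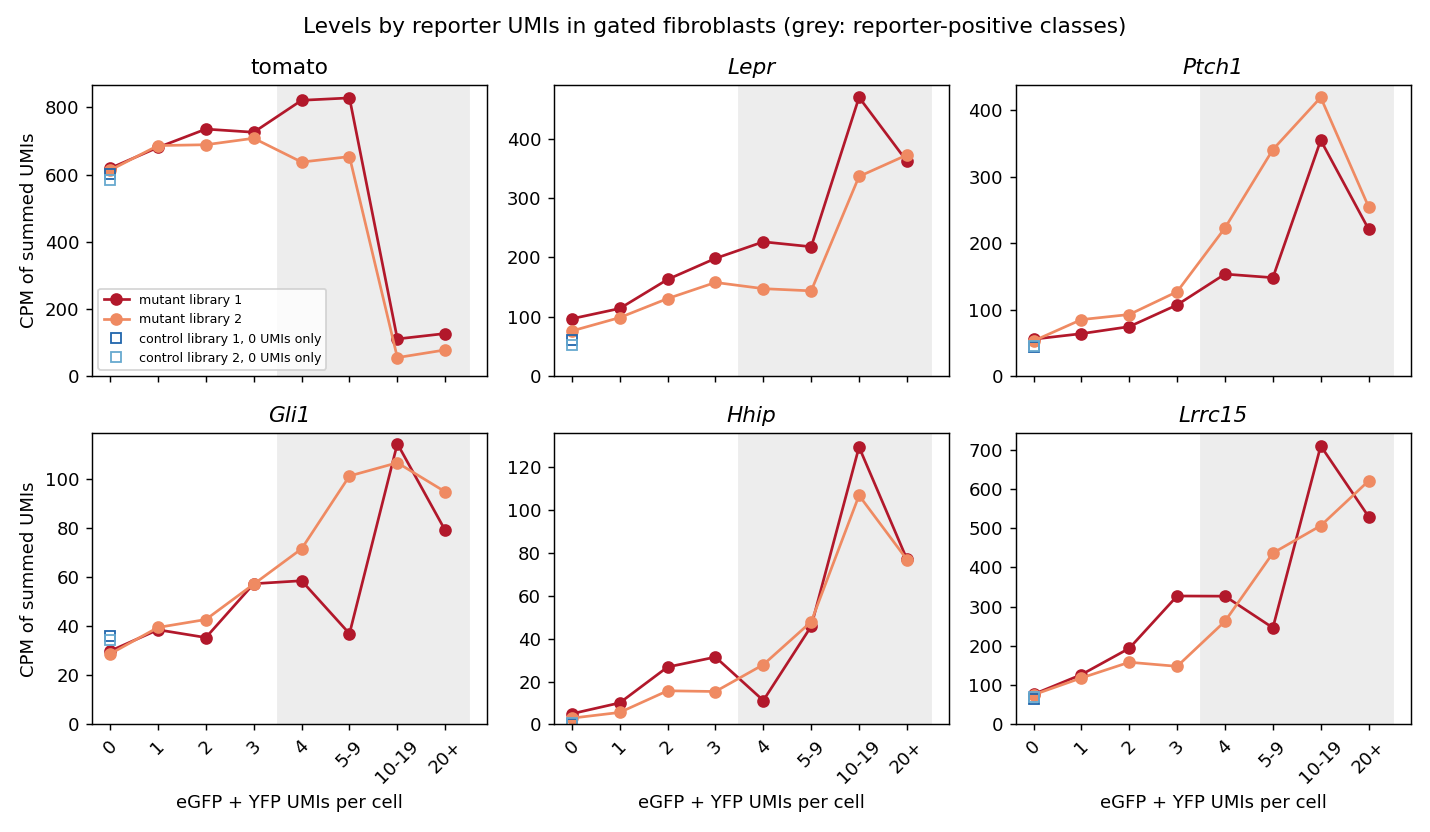
CPM (vertical axes, linear) of 6 genes in gated fibroblasts summed by the number of eGFP and YFP UMIs per cell (horizontal axes), with 1 line per mutant library and control cells with 0 UMIs as squares. Tomato drops from 828 and 653 CPM at 5 to 9 reporter UMIs to 111 and 55.4 CPM at 10 to 19, while the other 5 genes are higher there than at 0 in both libraries.

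Reporter-positive cells made up 14.2% (exact Clopper-Pearson 95% interval 12.2 to 16.4, counting error only) and 13.3% (11.4 to 15.4) of gated fibroblasts in the mutant libraries. The control libraries held 1.60% (0.831 to 2.78) and 2.16% (1.24 to 3.49), or 12 and 16 cells. The difference was 11.9 percentage points between means of 13.7% ± 0.621 (SD, n = 2) and 1.88% ± 0.396 (SD, n = 2), with p = 0.333 by a two-sided exact permutation test, the smallest p that 2 against 2 libraries allow. Keratinocytes of the same depth window, taken as the background, held at least 4 reporter UMIs in 2.89% and 2.37% of mutant and 2.74% and 2.81% of control cells. At this threshold both control fibroblast shares lay below that background and both mutant shares above it. Control keratinocytes were deeper, with medians of 13715.5 and 13825.5 UMIs against 9296 and 9767 in control fibroblasts. At 8 or more reporter UMIs control fibroblasts held 0.534% and 0.405%, and control keratinocytes 0 of 986 and 0 of 998 cells. Mutant fibroblasts then held 9.78% and 9.96%, and mutant keratinocytes 0.482% and 0.139%. The part of depth was not tested. The few control positive cells were not compared further.

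Positive cells were deeper, with medians of 15380 and 14527 UMIs against 10541 and 10144 in negative cells. They are therefore compared as summed counts, fitted with the library as a block by edgeR's quasi-likelihood test. Calls needed a log2 change of at least 1 in size and an adjusted p (Benjamini-Hochberg) under 0.05. Genes of the rule were fitted but not counted. Of 11389 genes tested 806 (7.08%) were called, 342 (3.0%) higher and 464 (4.07%) lower in positive cells, and the median log2 change over all genes was 0.00. At an unadjusted p under 0.05 the count was 3542 (31.1%). With arms matched on depth (139 and 145 cells each) 408 were called, and without mutant library 2 the count was 383. That last fit takes the spread of the remaining mutant library from the control negative sums. DESeq2 called 323 genes, 322 of them among the 806, and of 201 named genes 41 lost their call with it. Levels per library below are plain CPM, and log2 changes come from the fit. Their standard error (SE) is the size of the change divided by the square root of the F statistic of that test. It is not a standard error taken between libraries.

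**Figure D2:**
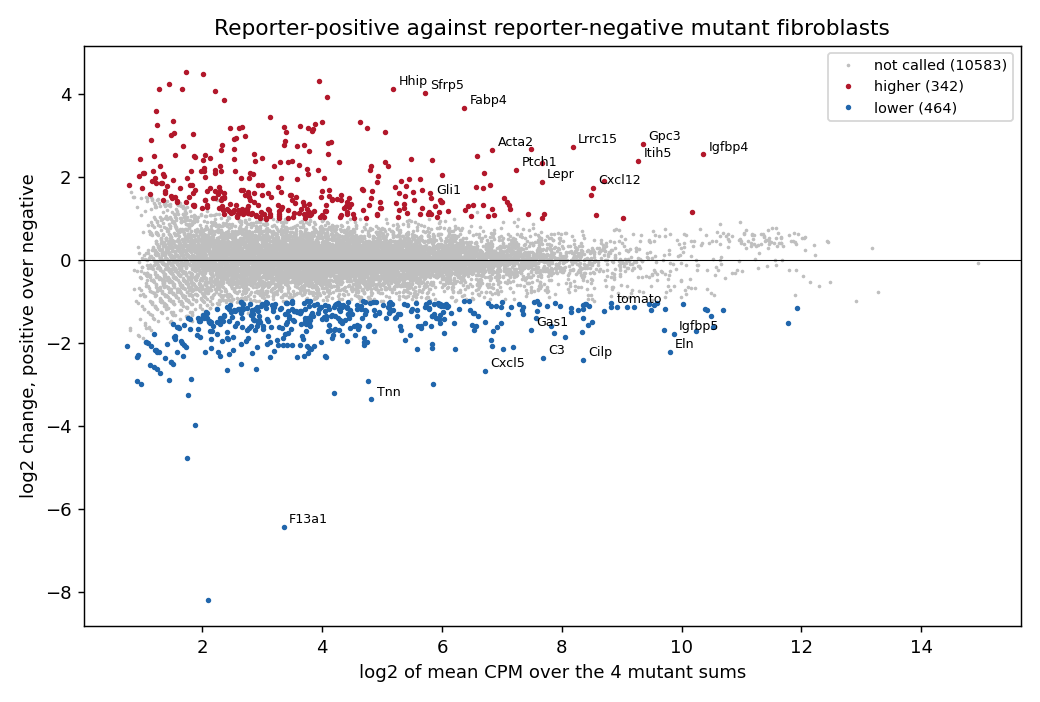
Log2 change of positive over negative cells (vertical axis) against the log2 mean CPM of the 4 mutant sums (horizontal axis), 1 point per gene tested, with 342 genes called higher in red and 464 lower in blue. Igfbp4, Gpc3 and Itih5 combine a large rise with a high level, as Eln does among the falls.

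Hedgehog targets and the gene that drives Cre were among the rises. Of 12 targets 9 could be tested, and 4 rose and 1 fell, with a median log2 change of 0.57 against 0.00 over all genes; the other 3 (Foxf1, Foxf2 and Foxl1) were at 2.86 CPM or less in every mutant sum. Hhip, Ptch1 and Gli1, feedback genes of the pathway, were each called in every alternative that was run.

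Hhip (chromosome 8, 79965851 to 80058006 on the minus strand, GRCm38) stood at 67.5 and 70.5 CPM in positive and at 5.0 and 2.94 CPM in negative cells. Both positive values lay above both negative ones, a log2 change of 4.13 ± 0.193 (SE, n = 2 libraries per arm, edgeR adjusted p = 1.7e-16). Ptch1 (chromosome 13, 63508328 to 63573598, minus strand) stood at 212.5 and 282 CPM in positive and at 55.7 and 53.1 CPM in negative cells, and rose by 2.18 ± 0.117. Gli1 (chromosome 10, 127329882 to 127341974, minus strand), the transcription factor used as the standard read-out of the pathway, rose as well. It stood at 72.3 and 94.7 CPM in positive and 30.0 and 28.8 CPM in negative cells (log2 change 1.5 ± 0.134, edgeR adjusted p = 3.8e-10). The reporter-negative control cells had Gli1 at 36.3 and 34.5 CPM, above the mutant negative cells, and Hhip at 0.200 and 0.612 CPM, below them.

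The remaining targets did not follow. Osr2, a transcription factor, fell from 100.1 and 91.0 CPM to 43.4 and 28.0 CPM (-1.43 ± 0.139). Ccnd1, a cyclin, was at 88.4 and 91.3 CPM in positive and 59.2 and 61.8 CPM in negative cells, which is 0.57 on the log2 scale and was not called. Bcl2, Ccnd2 and Mycn stood at log2 changes of 0.26, -0.29 and -0.32 and were not called. The letters CCACCCA, part of the sequence that Gli factors bind, were found on either strand in 1 of 5 RefSeq promoter windows matched to the target list (GRCm38.p6, 250 bases before to 50 after the start), that of Mycn. They were in 9.3% of all 32851 windows, and they were not in the windows of Hhip and Ptch1.

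Upstream of the targets, 1 of 14 receptors and transducers tested rose and 1 fell (median 0.19). Gli2, the activator that acts before Gli1, rose from 12.3 and 10.7 CPM to 28.1 and 36.5 CPM (1.49 ± 0.197). With matched depth Gli2 was not called (log2 change 1.58, edgeR adjusted p = 0.057). Gas1, a coreceptor for the ligands, fell from 265.5 and 280.5 CPM to 100 and 71.8 CPM (-1.68 ± 0.119). Smo (chromosome 6, 29735503 to 29761365, plus strand) stood at 56.6 and 51.0 CPM in positive and 43.4 and 40.7 CPM in negative cells, 0.35 ± 0.13 on the log2 scale (edgeR adjusted p = 0.05), and was not called. The libraries tag 3′ ends, so this level does not show which Smo allele was transcribed.

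Lepr (chromosome 4, 101717404 to 101815352, plus strand), the leptin receptor, stood at 327 and 310 CPM in positive and 96.7 and 76.2 CPM in negative cells. It rose by 1.89 ± 0.107 (edgeR adjusted p = 1.6e-14), and the 2 control negative sums lay lower, at 61.1 and 51.8 CPM. Tomato fell from 619 and 613 CPM to 354 and 222 CPM (-1.13 ± 0.119), and without mutant library 2 it stood at -0.80, under the fold minimum. The reporter changes from tomato to GFP, so choosing cells by eGFP largely set this direction. The fall of tomato is therefore a description, although tomato was tested and counted with the other genes.

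**Figure D3:**
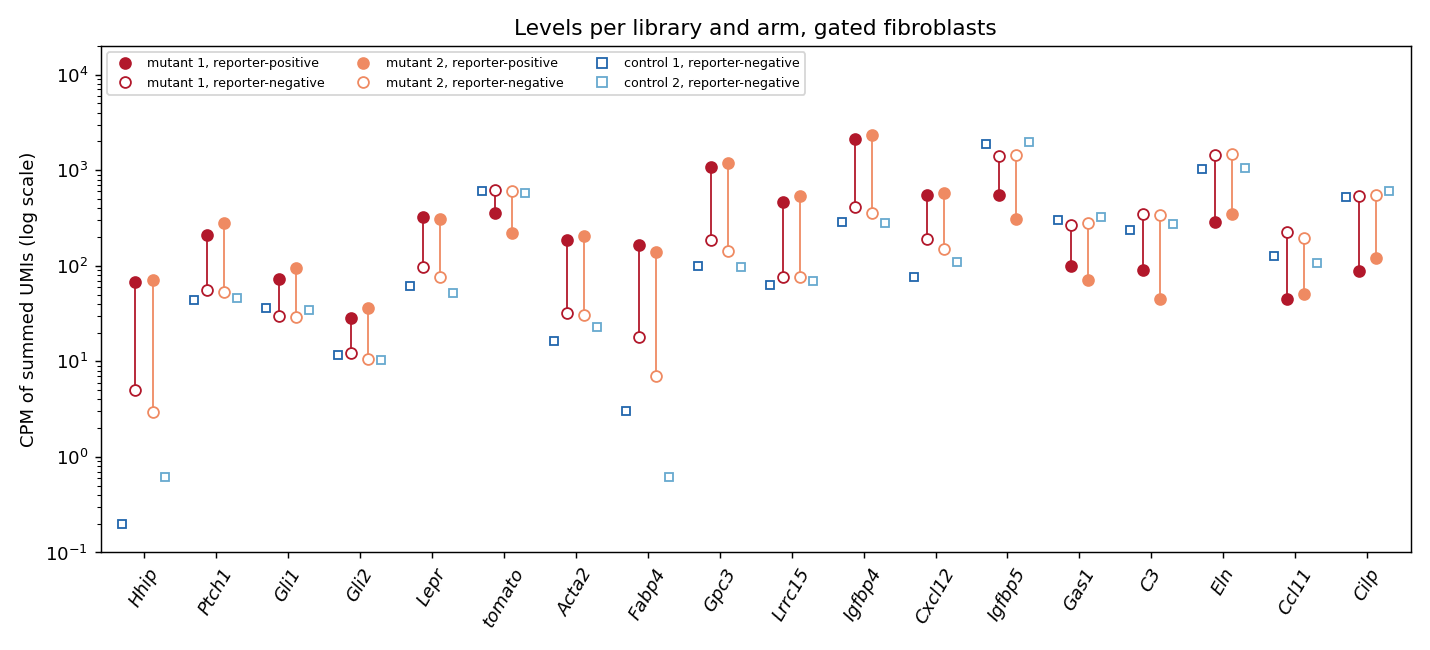
CPM (vertical axis, log scale) of 18 genes in each arm of each mutant library (filled, positive; open, negative; a line joins the arms of 1 library) and in control negative cells (squares). In both mutant libraries the first 5 genes and Acta2 to Cxcl12 are higher in positive cells, and tomato and Igfbp5 to Cilp are lower.

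Shares of cells gave the same order after every cell was thinned to 5000 UMIs. Hhip was seen in 20.9% and 20.8% of positive cells (unthinned 44.9% and 47.2%) and in 1.56% and 1.32% of negative cells. Keratinocytes of the same libraries, used as the background of free RNA (median 13480 and 13300 UMIs before thinning), held a Hhip UMI in 1.13% and 0.837% of cells. The negative share of Hhip was thus close to background. Lepr was seen in 65.8% and 59.7% of positive, 29.2% and 23.4% of negative and 1.45% and 0.697% of keratinocytes. At that depth 46.2% and 56.6% of positive cells held at least 2 UMIs of Gli1, Ptch1 and Hhip together, against 9.14% and 8.75% of negative cells, and 31.6% and 30.2% of positive cells held none. A cell with 0 UMIs at that depth may still express the genes, and unthinned Ptch1 was seen in 71.5% and 78.0% and Gli1 in 65.2% and 66.7% of positive cells.

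Of 16 hair growth signals tested, factors that dermal mesenchyme sends to the follicle, 0 rose, 4 fell and 12 were not called (median -0.76). Fgf7, a growth factor for keratinocytes, fell from 107 and 109 CPM to 49.0 and 45.9 CPM (-1.19 ± 0.124, edgeR adjusted p = 8.7e-09). Rspo1, which amplifies Wnt signals (-1.13), Tgfb2 (-1.12) and Edn3, an endothelin that acts on melanocytes (-1.23), also fell. Without mutant library 2 only Fgf7 of these 4 was still called, with Rspo1 at -0.67, Tgfb2 at -0.87 and Edn3 at -0.45. Igf1 was at 130 and 121.5 CPM in positive and 223 and 211 CPM in negative cells, -0.79 on the log2 scale, and was not called.

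Of 9 secreted Wnt inhibitors tested 3 rose, 0 fell and 6 were not called (median 0.10). Wif1, which binds Wnt ligands, rose from 240 and 244 CPM to 520 and 513 CPM (1.09 ± 0.101), close to the fold minimum, and stood at 0.82 with matched depth. Frzb, a decoy for Wnt ligands, rose from 4.28 and 2.17 CPM to 14.1 and 18.7 CPM (2.36 ± 0.337). The third, Sfrp5, came from a small group of cells described below. Dkk2 and Dkk3, the 2 most abundant members not called, stood at -0.62 and -0.15. Among 12 Wnt ligands and response genes tested 1 rose, the ligand Wnt6 (1.82), and 2 fell, Nkd2 and Apcdd1. Wnt6 stood at 0.14 without the same small group of cells, and DESeq2 did not call it (adjusted p = 0.1).

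Of 21 genes of Bmp and Tgfb signalling tested 7 fell and 0 rose (median -0.77). Bmp4, a ligand, fell from 59.4 and 66.6 CPM to 28.5 and 25.1 CPM (-1.23 ± 0.144), and Tgfbi, a matrix protein induced by Tgfb, fell by 1.40. Without mutant library 2, 3 members were called lower, and without mutant library 1, 12.

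In the Igf axis members moved in both directions. Igfbp4 (chromosome 11, 99041244 to 99054392, plus strand), which binds insulin-like growth factors, stood at 2147 and 2342 CPM in positive and 413 and 354 CPM in negative cells (2.55 ± 0.121, edgeR adjusted p = 2.2e-16). Igfbp5 fell from 1420 and 1453 CPM to 551 and 313 CPM (-1.78 ± 0.134). The arms did not overlap for either. Of 10 members tested 2 rose and 3 fell (median -0.34), the others being Igfbp6 (1.02), Igfbp2 (-1.07) and Igf2 (-2.35). Igfbp6 stood at -0.45 without the Sfrp5-expressing group of cells described below, Igfbp2 at -0.53 and Igf2 at -1.55 (edgeR adjusted p = 0.1) with matched depth, and DESeq2 called neither Igfbp6 nor Igfbp2.

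Of 24 matrix glycoproteins and proteoglycans tested 4 rose and 9 fell (median -0.65). Gpc3 (chromosome X, 52272426 to 52613950, minus strand), a glypican that binds growth factors and Hedgehog ligands at the cell surface, stood at 1092 and 1189 CPM in positive and 185 and 142 CPM in negative cells (2.81 ± 0.122). Lrrc15 (chromosome 16, 30269302 to 30283256, minus strand), a membrane protein known from activated fibroblasts, stood at 468 and 542 CPM against 76.7 and 75.5 CPM (2.73 ± 0.11). Postn, periostin, rose by 1.16 and Fbn2, a fibrillin, by 1.69.

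Genes of elastic fibres and collagen-bound proteoglycans were among the falls. Eln, elastin, fell from 1451 and 1487 CPM to 287 and 348 CPM (-2.22 ± 0.115, edgeR adjusted p = 1.6e-15). Lum, a small proteoglycan that organises collagen, fell from 2304 and 2123 CPM to 821 and 637 CPM (-1.61), and Fbln1, fibulin, by 2.08. Tnn, tenascin N, fell from 44.8 and 58.0 CPM to 3.61 and 6.37 CPM (-3.36 ± 0.212). Of 19 collagens tested 1 rose, Col14a1 (1.24), and 2 fell, Col8a1 (-2.15) and Col6a6 (-1.51). Among 17 proteases, inhibitors and crosslinkers 0 rose and 5 fell (median -0.47), among them Mmp16 (-2.31) and Mmp3 (-1.25). Mmp3 stood at 98.4 and 255 CPM in positive and 386 and 394 CPM in mutant negative cells. In control negative cells it was at 152 and 128 CPM, between the 2 positive values.

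**Figure D4:**
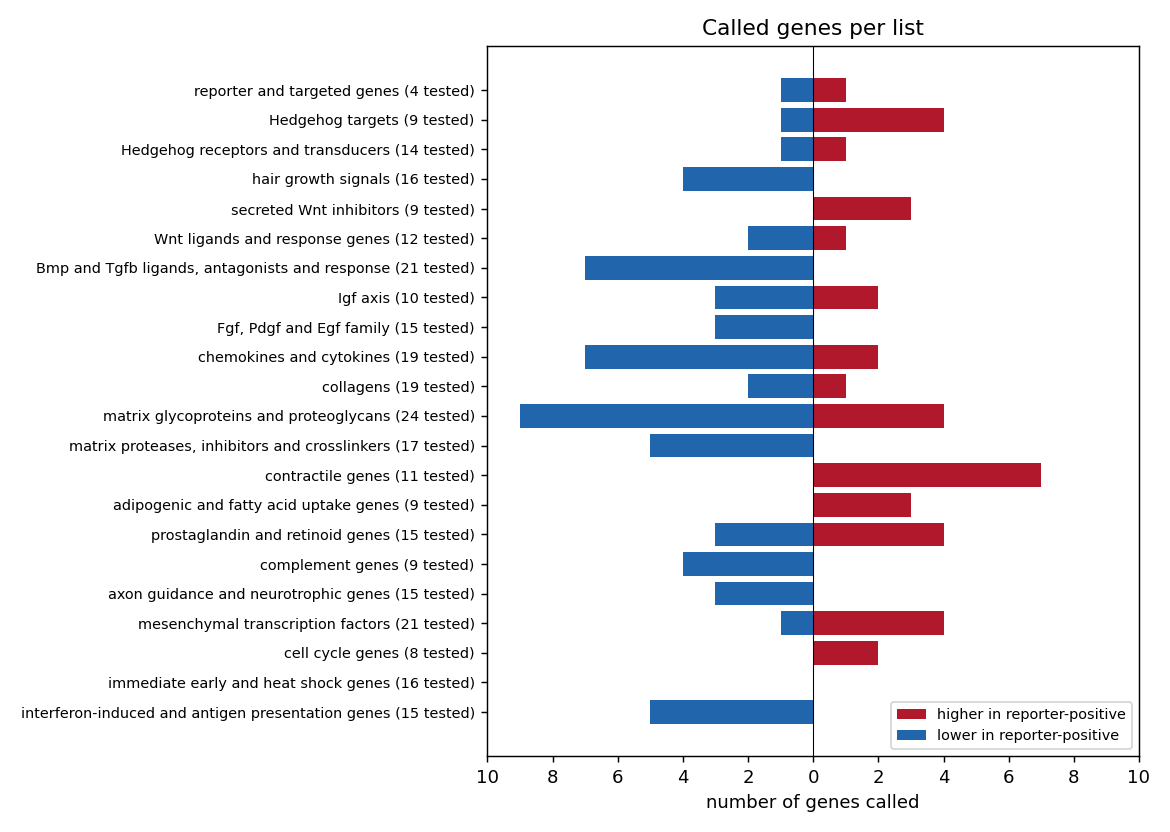
Number of genes called (horizontal axis) in each of 22 gene lists (vertical axis, with the number tested), to the right for genes higher and to the left for genes lower in positive cells. Contractile genes have 7 higher and 0 lower, matrix glycoproteins and proteoglycans 4 higher and 9 lower, and immediate early and heat shock genes none in either direction.

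Of 11 contractile genes tested 7 rose and 0 fell (median 1.21). Acta2, smooth muscle actin, went from 31.9 and 30.5 CPM to 188 and 206 CPM (2.66 ± 0.118, edgeR adjusted p = 5.8e-17). Tagln, which binds actin, rose by 1.74, Tpm2, a tropomyosin, by 1.40 and Actg2 by 1.97. Mylk, the kinase of myosin light chain, was at 73.5 and 79.4 CPM against 65.8 and 59.9 CPM and was not called (0.28). The summed level of pericyte markers was 254 and 172 CPM in positive against 317 and 297 CPM in negative cells. That sum includes Rgs5, which the gate limited in both arms, and is a description. Among the dermal sheath markers Itga8 (-1.88) and Tnn fell with Abcc9 while 4 contractile members rose, and the summed level was 486 and 456 CPM against 240 and 241 CPM. Acta2 was called in every alternative that was run. Myh11, a smooth muscle myosin and 1 of the 7, stood at 1.33 but at -0.29 when positive cells needed 8 reporter UMIs.

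Of 9 adipogenic and fatty acid uptake genes tested 3 rose and 0 fell (median 0.52). Fabp4, a fatty acid-binding protein, went from 18.0 and 6.97 CPM to 165.5 and 140 CPM (3.67 ± 0.17, edgeR adjusted p = 1.7e-16). Pparg, the transcription factor that directs fat cell formation, rose from 3.75 and 3.41 CPM to 20.5 and 17.4 CPM (2.39 ± 0.292), and Cd36, a fatty acid transporter, by 2.14. Cd36 lost its call without mutant library 1 (edgeR adjusted p = 0.16) or 2 (0.58). The 7 adipocyte markers, of which 1 could be tested and was not called, summed to 6.83 and 6.79 CPM in positive and 4.64 and 3.1 CPM in negative cells. Lep was at 0 in both positive sums, and Adipoq, Retn and Cidec were at 0 in that of mutant library 1.

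Some inflammatory and antigen presentation genes were lower. Of 19 chemokines and cytokines tested 2 rose and 7 fell (median -0.85). Ccl11, which attracts eosinophils, fell from 228 and 194 CPM to 45 and 51.0 CPM (-2.14 ± 0.123). Cxcl5, which attracts neutrophils, stood at 4.42 and 51.0 CPM in positive and 254 and 113 CPM in negative cells (-2.68 ± 0.367), and lost its call without mutant library 1 (-1.13, edgeR adjusted p = 0.26). Against this direction Cxcl12, a chemokine that holds lymphoid and stem cells in place, rose from 189 and 149 CPM to 547.5 and 575 CPM (1.74 ± 0.111). The other rise, Csf3 (1.24), was at 5.62 and 13.2 CPM against 5.17 and 2.79 CPM, and without mutant library 2 it stood at 0.12. It was also not called without the library as a block (edgeR adjusted p = 0.083) or without called doublets (0.061).

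Complement had 4 of 9 genes lower and 0 higher (median -0.53). C3, the central component, fell from 348 and 338 CPM to 91.2 and 45.4 CPM (-2.36 ± 0.141), with Cfb (-2.62), C4b (-1.75) and Serping1 (-1.07). Control negative cells had C3 at 239 and 272 CPM, above the positive cells. For C4b they stood near the positive cells, at 14.0 and 39.4 CPM against 14.5 and 44.6 CPM. The mutant negative cells had C4b at 131.1 and 71.05 CPM. C4b lost its call without mutant library 1 (-0.66, edgeR adjusted p = 0.44), and Cfb (-1.91, 0.052) and Serping1 (-0.90) were not without mutant library 2. Of 15 interferon-induced and antigen presentation genes 5 fell and 0 rose (median -0.57), and 3 of the 5 encode parts of class I molecules, which nearly all cells carry. H2-D1 fell from 2073 and 2019 CPM to 975 and 654 CPM (-1.35 ± 0.122), as did H2-K1 (-1.18) and B2m (-1.20). Immune cell markers moved with them, since 4 of 9 tested fell and 1, the T cell gene Cd3g, rose (1.25, and -0.78 without called doublets), their sum being 64.7 and 124 CPM in positive and 115 and 166 CPM in negative cells. In an alternative chosen with the data in view, without cells carrying markers of other cell types, 3 of the antigen presentation genes, 4 of the complement genes and 7 of the chemokines and cytokines were called lower.

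Transcription factors of mesenchyme were called in 5 of 21 cases (median -0.09), 4 of them higher. Sox18, known from vessel and hair follicle development, rose from 2.68 and 1.70 CPM to 20.5 and 17.0 CPM (3.09 ± 0.327). Ebf2 rose by 2.37, Alx4 by 2.15 and Hic1 by 1.16, and Prrx2 fell by 1.07. Ebf2 stood at 0.88 without the Sfrp5-expressing group of cells, DESeq2 called neither Alx4 nor Hic1, and Alx4, Hic1 and Prrx2 lost their calls with matched depth. Prostaglandin and retinoid genes had 4 of 15 higher and 3 lower (median 0.21). Slco2a1 (chromosome 9, 102988712 to 103096002, plus strand), the transporter that takes up prostaglandins, rose from 50.5 and 46.1 CPM to 304 and 315 CPM (2.68 ± 0.11), while Ptgs2, which makes them, fell from 508 and 403.5 CPM to 177 and 225.5 CPM (-1.18 ± 0.123). Itih5 (chromosome 2, 10153571 to 10256529, plus strand), a hyaluronan-binding protein chosen here after its values were seen, rose from 209 and 188.5 CPM to 943 and 1139 CPM (2.39 ± 0.116).

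Immediate early and heat shock genes, which dissociation can induce, had 0 of 16 called (median 0.02). Of 8 cell cycle genes tested 2 rose, Rrm2 (1.39) and Mcm6 (1.10), both under 12 CPM, and neither was called without either library. Axon guidance genes had 3 of 15 lower and 0 higher, among them Nrp1 (-1.13), and the Fgf, Pdgf and Egf family 3 of 15 lower and 0 higher, Fgf7 among them.

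The largest falls outside these groups included Cilp, a cartilage matrix protein (541.5 and 550.3 CPM to 87.6 and 121.5 CPM, -2.40 ± 0.119), and the agouti gene a, a melanocyte signal (50.7 and 45.7 CPM to 8.44 and 4.25 CPM, -2.92 ± 0.209). F13a1, a clotting factor subunit, had 1 UMI in all positive and 242 in all negative cells, a ratio of negative over positive levels of 97.2 (95% counting interval 17.3 to 3853). Prkcb (-2.35), a kinase, and Ackr4 (-2.24), a receptor that removes chemokines, fell as well. Defb6 (-2.32) and the rise of Gzmc (3.29) rested on few cells. Without called doublets Defb6 stood at -0.41 and Gzmc at -0.61. Gzmc was at 51.0 CPM in positive cells of mutant library 2 and at 2.81 CPM in those of library 1.

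Several of the largest rises came from a small set of positive cells. Pcp4 (4.32), Sfrp5 (4.04), Lypd2 (3.94), Krt19 (3.34) and Cdh5 (3.16) were called, and after their values were seen cells with at least 2 UMIs of these 5 genes together were counted. Such cells made up 11.4% (18 of 158) and 18.9% (30 of 159) of positive and 1.75% and 1.82% of negative cells. In control negative cells they were 0 of 509, and 3 of 477 (0.629%). As the genes chose the cells, what follows is a description of 48 cells, to which no name is given.

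Cells with the set had higher Ptch1 levels and lower levels of several other leading genes. Ptch1 stood at 487 and 695 CPM in them against 182 and 209 CPM in the remaining positive cells. Hhip went the other way, at 36.5 and 19.7 CPM against 70.9 and 79.5 CPM. Lrrc15 stood at 85.3 and 90.0 CPM against 510 and 623 CPM, Cxcl12 at 28.4 and 59.0 CPM against 604.5 and 666 CPM, and Fabp4 had 0 UMIs against 184 and 165 CPM. Cldn1, a tight junction protein, stood at 455 and 590 CPM against 34.3 and 20.5 CPM. The libraries differed within cells with the set, with Coch at 4369.5 and 42.2 CPM (1076 and 15 UMIs) and Tnmd at 581 and 30.9 CPM. Cdh5 is best known from endothelium. Of other endothelial genes Kdr, Emcn and Cldn5 had 0 UMIs in these cells and Tie1 1 and 0, while Plvap had 1 and 6 UMIs (4.06 and 16.9 CPM, against 10.3 and 6.0 CPM in the remaining positive cells). The part of endothelial RNA was not tested. eGFP stood at 2363 and 2233 CPM in cells with the set. Without all cells carrying more than 1 UMI of the set 701 genes were called, 265 higher and 436 lower, and 4 Hedgehog targets were still called higher. Cldn1 then stood at -0.04 and Igfbp6 at -0.45.

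**Figure D5:**
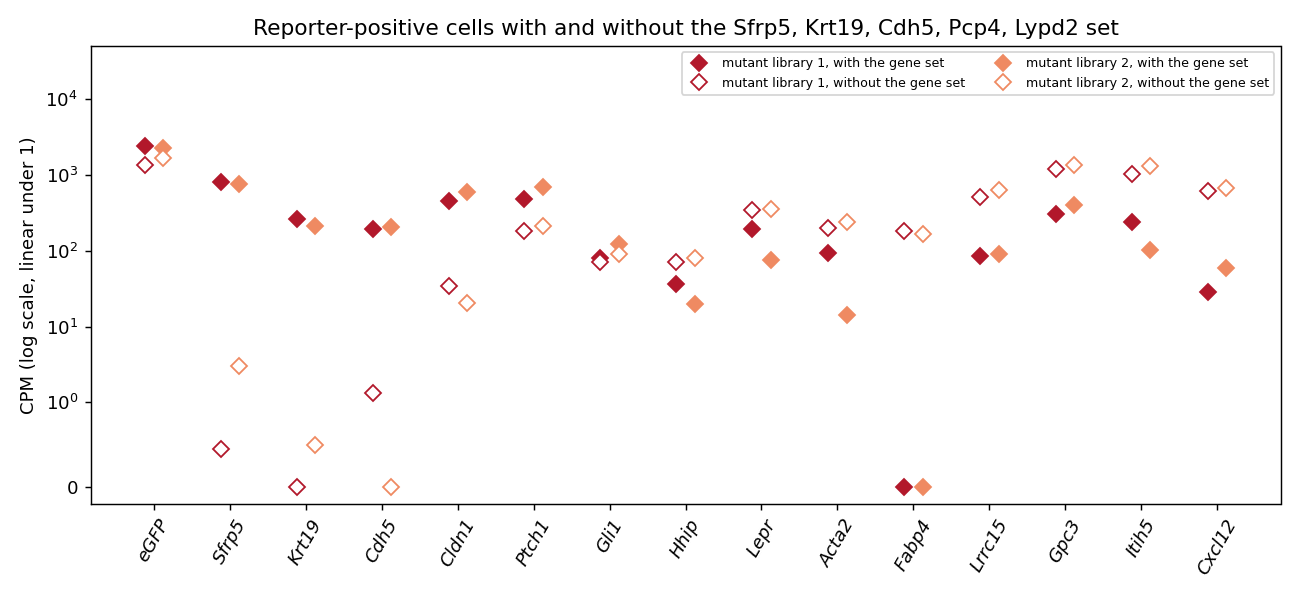
CPM (vertical axis, log scale, linear under 1) of 15 genes in positive cells with (filled) and without (open) at least 2 UMIs of Sfrp5, Krt19, Cdh5, Pcp4 and Lypd2, by mutant library. Ptch1 and Cldn1 are higher and Lrrc15, Gpc3, Itih5 and Cxcl12 lower in the 18 and 30 cells with the set.

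Rises outside that set included Hs6st2, which sulphates heparan chains (6.07 and 4.49 CPM to 51.8 and 44.6 CPM, 3.19 ± 0.196), Tpd52l1 (3.1) and Egfl6 (3.18). Ildr2 (3.23) and Nme4 (3.11) were also among the 15 largest rises.

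The 10 fibroblast markers summed to 40520 and 32740 CPM in positive and 62770 and 65200 CPM in negative cells, but 3 of them are the gate genes, so the sum is a description and no check of identity. Pdgfra, a fibroblast receptor that the gate did not use, was at 172 and 202 CPM in positive and 179 and 182 CPM in negative cells and was not called (0.05, edgeR adjusted p = 0.80). The 14 dermal papilla markers summed to 325 and 268 CPM in positive and 556 and 627 CPM in negative cells, 2 of 10 tested fell (Prdm1 and Crabp1), and Sox2 and Corin were at 3.41 CPM or less in every mutant sum. Keratinocyte markers summed to 962 and 856 CPM against 930 and 930 CPM, blood endothelial markers to 61.5 and 62.4 CPM against 51.0 and 55.3 CPM, and Schwann markers to 26.5 and 21.7 CPM against 36.9 and 51.5 CPM. The gate limited Krt14, Krt5 and Pecam1 in both arms, so the keratinocyte and endothelial sums are descriptions too. Krt1 was the 1 keratinocyte marker called (1.67), and stood at -1.07 when positive cells needed 8 reporter UMIs. Of 4 blood endothelial markers tested Cdh5 and Flt1 (1.09) rose and Plvap (-1.69) fell. The part of other cells' RNA in the results was not tested.

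Markers of named fibroblast subsets were lower in positive cells where they moved, apart from Cldn1. Of 5 Coch fibroblast markers 4 fell and Cldn1 rose, and Coch itself fell from 4971 and 5611 CPM to 3366 and 1669 CPM (-1.15 ± 0.166), with -0.56 without mutant library 2. Of 7 Tnmd and Kera fibroblast markers tested 3 fell, and of 9 Pi16 and Dpp4 fibroblast markers 2 did. Pi16 fell from 328 and 349 CPM to 120.5 and 104.5 CPM (-1.59 ± 0.109). Of 9 papillary dermis markers 2 fell, Rgcc (-1.15) and Apcdd1 (-1.21).

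The negative arm itself was compared between genotypes. Of 11733 genes tested between mutant and control negative cells (514 and 606 against 509 and 477) 78 (0.665%) were called by edgeR, 54 (0.460%) higher and 24 (0.205%) lower in the mutant, and DESeq2 called 3. At an unadjusted p under 0.05 the count was 1766 (15.1%). Of genes named for the reporter comparison, Slco2a1 (1.29) and Fbn2 (1.11) were called higher in the mutant. Under the fold minimum but at an edgeR adjusted p under 0.05, Lepr (0.66), Gpc3 (0.78), Cxcl12 (0.92), Igfbp4 (0.48) and Eln (0.56) were higher. So were Acta2 (0.72), C3 (0.47) and Itih5 (0.33). Gas6 (-0.78) was lower in the same way. Lrrc15 (0.25, edgeR adjusted p = 0.19) and Gli1 (-0.22, edgeR adjusted p = 0.38) were not under that threshold. Prss22, a serine protease, had 437 UMIs in mutant and 4 in control cells, a ratio of 89.6 (95% counting interval 34.7 to 330.2). Hhip had 47 UMIs in mutant and 4 in control cells, a ratio of 9.63 (3.52 to 36.8), and was the 1 Hedgehog target of 10 called. Without mutant library 1 it was not (2.83, edgeR adjusted p = 0.16). Background keratinocytes differed in the same direction, with a Hhip UMI in 12 of 622 and 9 of 717 mutant cells and in 1 of 986 and 0 of 998 control cells, and the part of free RNA was not tested. Ptch1 was at 55.7 and 53.1 CPM in the mutant and 43.9 and 45.5 CPM in the control and was not called (0.33 ± 0.101, edgeR adjusted p = 0.11). Of 19 chemokines and cytokines 4 were higher and 0 lower (median 0.53), among them Cxcl5 (1.75), Cxcl9 (1.14) and Ccl8 (1.21), and of 9 complement genes 3 were higher, C4b (1.96) among them. Cxcl5 lost its call without mutant library 1 (1.05, edgeR adjusted p = 0.19). Mmp3, a matrix protease, stood at 386 and 394 CPM in the mutant and 152 and 128 CPM in the control (1.53 ± 0.0768).

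The transcript of the reporter locus, Gt(ROSA)26Sor, stood at 1.07 and 2.48 CPM in mutant and 31.5 and 28.0 CPM in control negative cells (-3.97 ± 0.251). It was at 5.62 and 1.70 CPM in mutant positive cells and was not called between the mutant arms (1.01, edgeR adjusted p = 0.24). The histone gene Hist1h2al had 0 UMIs in mutant and 204 in control negative cells, a level at least 82.9-fold lower when set at the floor of 3 counts over the group. Ly6d and Pi15 fell by 1.53 and 1.18. Areg was called lower (-1.5) but stood at 0.13 without called doublets. Ccl5 (2.77) and Ccl21a (2.59) were the other large rises, and for both 1 mutant library lay well above the other, Ccl5 at 12.8 and 44.9 CPM and Ccl21a at 35.5 and 9.29 CPM.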

How the data were processed

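Raw UMI counts for each gene and barcode were deposited. Cell Ranger 3.1.0 made those of the unsorted libraries, per the file headers, and the submitters' processing notes name mm10 and GRCm38. Per the labels' protocols the cells were captured with 10x Genomics 3′ chemistry. The mutant libraries held 152475023 and 147245343 UMIs and the control libraries 163044933 and 171197845. Mutant libraries 1 and 2 shared 164 barcodes, none within the 2 arms. The sorted library was not used here, and 0 columns belonged to other samples.

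Counts of gated cells were summed per library and arm and tested with edgeR 4.0.16 (TMM, filterByExpr, library as a block), after a test on simulated data. Doublets were kept, and scrublet in scanpy 1.11.5 marked 156 and 155 mutant barcodes (1.83% and 1.76%). Same-numbered libraries of the genotypes are not paired. Control positive sums held fewer than 20 cells, so comparisons that need them were not run. Both arms of a library share its preparation.

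The members and the 22 gene and 16 marker lists, the tests and the threshold were chosen with earlier results of these data known. Named genes are the reporter and target lists, the 15 largest rises and 12 largest falls with at least 20 CPM in the higher arm, and up to 4 called and 2 uncalled members per list; members of counts of 5 or fewer, Itih5 and Igfbp5 were added after their values were seen. In the genotype comparison the 5 largest rises and 5 largest falls were named, and other genes after their values were seen. Of genes that share a symbol the row with most UMIs was used. GENCODE gave GRCm38 coordinates for 216 of 219 genes. DESeq2 1.42.0 was an alternative. Some named genes are not reported here.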

Additional observations from a re-analysis of the deposited data

Results flagged for a closer look

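Mutant fibroblasts with 1 to 3 reporter UMIs entered neither arm, and 4 genes stood above every control value in them. Mean levels of the 2 mutant libraries were 13.9 CPM for Hhip, 83.6 CPM for Ptch1, 42.0 CPM for Gli1 and 128 CPM for Lepr. Control cells with 1 to 3 reporter UMIs had Hhip at 0 UMIs in both libraries, Ptch1 at 53.0 and 51.8 CPM, Gli1 at 34.4 and 32.1 CPM and Lepr at 64.2 and 50.2 CPM. The mutant values per library were 18.0 and 9.71 CPM for Hhip, 74.1 and 93.0 CPM for Ptch1, 41.0 and 42.9 CPM for Gli1 and 141 and 116 CPM for Lepr. These differences were not tested. Keratinocytes held 1 to 3 reporter UMIs in 43.6% and 41.3% of mutant cells, against 39.7% and 36.0% of gated mutant fibroblasts.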

How the results depend on the processing

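The reporter comparison called 806 genes. DESeq2 called 323, a threshold of 2 reporter UMIs 341 and arms matched on total UMIs 408, while 794 were called with DESeq2 size factors, 845 without the filter on low counts, 728 without the replicate block, 939 at 8 reporter UMIs and 958 at 10 (added after the data were seen). Leaving out mutant replicate 1 or 2 gave 695 or 383 calls. The genotype comparison of negative cells called 78 genes, 93 with the replicate block, 3 with DESeq2, and 46 to 133 when 1 library was left out: 46 without mutant replicate 1, 120 without control replicate 1 and 133 without control replicate 2. The correlation of same-numbered libraries was 0.0301. Without the replicate block 723 of the 806 genes were still called.

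Genes that turned direction were Krt1 (-1.07 at 8, -1.05 at 10 reporter UMIs and -0.67 at 8000 to 20000 UMIs), Cd3g (-1.41 at 8, -1.39 at 10, -0.78 without called doublets and -0.41 to 2.16 when 1 mutant replicate was left out), Myh11 (-0.29 at 8 and -0.27 at 10), Gzmc (-0.61 without called doublets), Igfbp6 (-0.45) and Cldn1 (-0.04) without the Sfrp5 gene set, and Areg between genotypes (0.13 without called doublets). The cause was not tested. The planned fit on all 8 sums and the 3 comparisons with control positive cells were not run, since those sums held 12 and 16 cells; a fit with control negative sums, added later, called 756. The share of positive cells differed by 17.2 points at 2 and 9.4 points at 8 reporter UMIs (two-sided exact permutation p = 0.333 for both). Low-level genes under about 5 CPM rest on few UMIs.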
